A study of Rattus norvegicus with 10 samples.

Results

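The potassium channel genes form one of the largest families of ion channel genes, and 64 of them were described here by class. They are the rows of the deposited table whose gene name is Kcn followed by letters and a number. Of the 12828 rows, 66 had such a name. *Kcnj8* and *Kcnj11*, the pore subunits of ATP-sensitive channels, were left aside, which leaves 64, each on a row of its own and each annotated as protein-coding. By class they comprised 30 voltage-gated (Kv) genes, 11 inward rectifier (Kir) genes, 7 K2P genes, 6 genes of calcium-activated channels and their sodium-activated relatives, and 10 genes of auxiliary subunits.

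RNA was taken from the arcuate nucleus (ARC), a nutrient-sensing nucleus of the mediobasal hypothalamus, of 10 Wistar rat dams upon parturition. For 5 dams the pregnancy diet held folic acid at 5X the recommended amount (5X-FA), and for the other 5 it held an equimolar amount of [6S]-5-methyltetrahydrofolic acid (5X-MTHF). Both groups were first-time pregnant, and both diets were of the AIN-93G type and were given in pregnancy only. The ARC was cut by free hand from a frozen coronal slice with the third ventricle as landmark, so a sample may hold tissue next to the nucleus.

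The value reported for each gene is the authors' mean, an average log2 CPM (the read number of a gene scaled to a common library total). Which libraries entered the average is not stated in the sources used here. It carries no SD and no n, because the table gives 1 such value per gene. The per-sample columns are headed by numbers that match no label, so no value was assigned to a dam, and the diets were not compared here. The methods state 1 approximate sequencing depth for every sample, and the average does not give the depth that each library reached. Turned back from the log2 scale, the averages of all rows summed to 1002152 CPM, and those of the 64 potassium channel genes made up 0.308% of that sum. A CPM counts reads over a whole transcript and is not divided by its length. The order of values below is therefore an order of read numbers and not of transcript numbers.

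Potassium channels let potassium leave the cell and so bring the membrane back toward rest. Kv channels open on depolarization and end the action potential. Kir channels pass current most readily near rest and include channels gated by G proteins, K2P channels carry the steady leak current, and calcium-activated channels link calcium entry to the afterhyperpolarization. Auxiliary subunits do not form the pore, but alter the gating and surface delivery of the subunits that do. In the ARC these channels set the firing of the neurons that sense hormones and nutrients.

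Over the 64 genes the average log2 CPM ran from 0.54 for *Kcne4* to 8.54 for *Kcna2*, with a median of 4.74. The median over all 12828 rows was 4.94, so the median member stood at percentile 45.8 of the table by reads (mid-rank, where 100 is the highest). A total of 29 of the 64 genes (45.3%) were at or above the median of all rows. At the upper end, 3 members (4.69%) were at or above percentile 90, and at the lower end 16 members (25%) were below percentile 20. The reads were unevenly spread within the family. The 5 genes with the most reads together took 35.0% of the family's summed CPM, and 10 genes were enough to reach 50% of it. The Kv genes as a class held 61.9% of the summed CPM, the auxiliary genes 13.3%, the Kir genes 11.5%, the calcium-activated genes 6.87% and the K2P genes 6.44%.

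**Figure D1:**
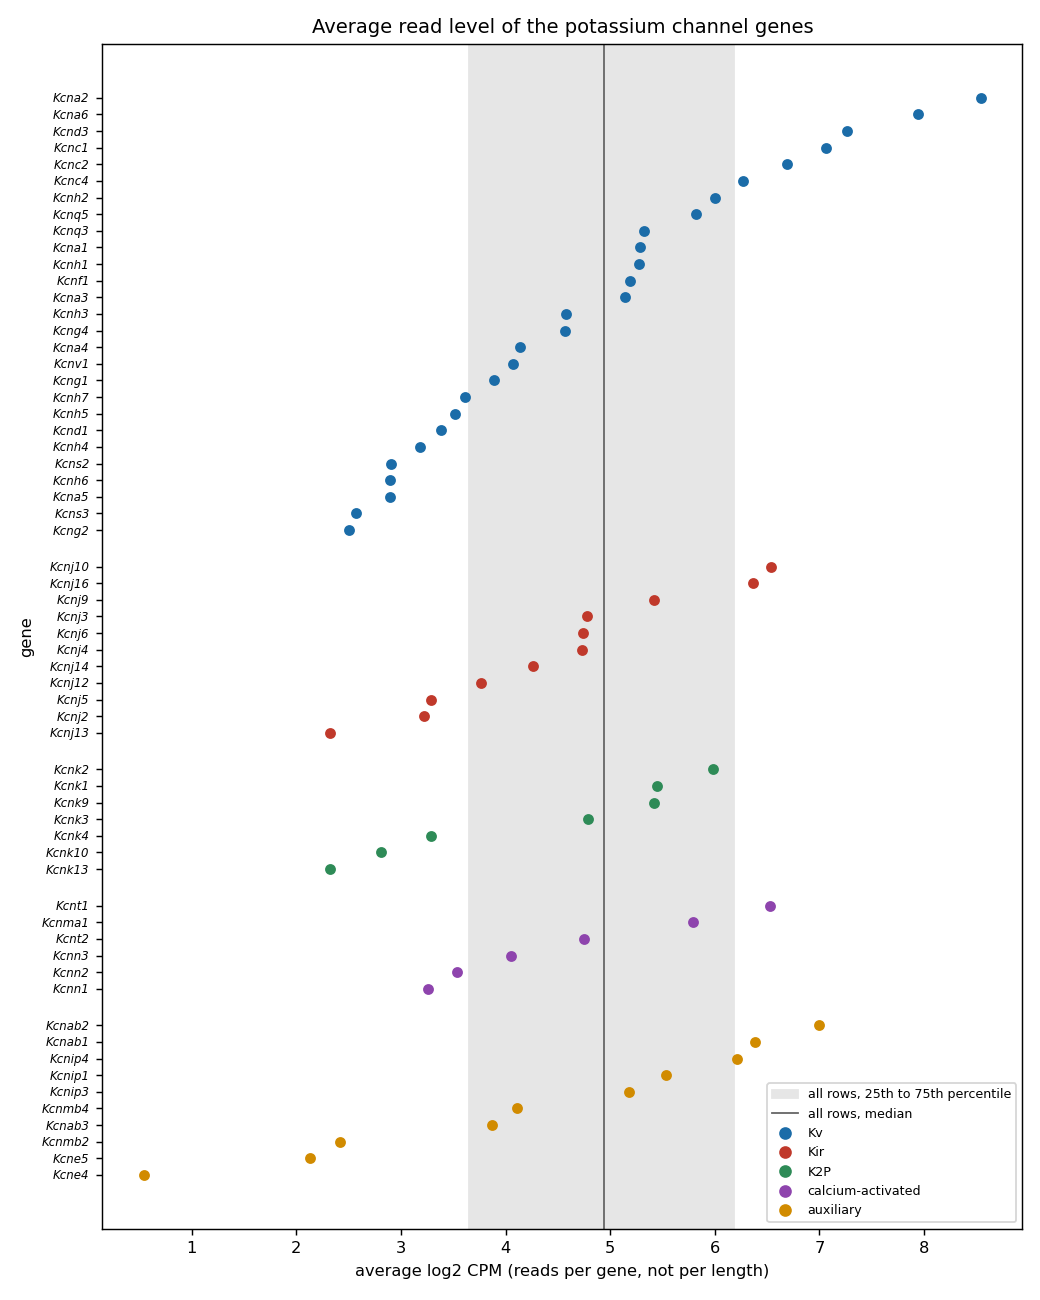
Average log2 CPM (x axis, reads per gene and not per length) of 61 potassium channel genes (1 point per gene, y axis), grouped and colored by class; the grey band is the 25th to 75th percentile of all rows and the line their median of 4.94. The points carry no error bars, since the table gives 1 average per gene; *Kcna2* at 8.54 and *Kcna6* at 7.94 lie farthest to the right and *Kcne4* at 0.54 farthest to the left.

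The Kv class had a median average log2 CPM of 5.17, and 16 of its 30 genes were at or above the median of all rows. It held all 3 members at or above percentile 90. *Kcna2*, at chr2:209838869-209852471 on Rnor_6.0, encodes Kv1.2, a low-threshold channel of axons that restrains repetitive firing, and had an average log2 CPM of 8.54 (percentile 97.4). *Kcna6*, at chr4:159253934-159287193 and encoding the related Kv1.6, had 7.94 (percentile 95.0). The other Kv1 genes received fewer reads, with average log2 CPM values of 5.29 for *Kcna1*, 5.14 for *Kcna3*, 4.14 for *Kcna4* and 2.89 for *Kcna5*.

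The Kv3 genes, whose fast channels permit high-frequency firing, included *Kcnc1* at an average log2 CPM of 7.06, *Kcnc2* at 6.69 and *Kcnc4* at 6.27, all above the median of all rows. The Kv4 channels carry the transient A current. *Kcnd3* had an average log2 CPM of 7.26, while *Kcnd1* had 3.38. *Kcnd2*, also on the class list as a Kv4 gene, had no row under that name, for a reason not given. *Kcnq5* and *Kcnq3*, subunits of the M current, which muscarinic receptors close, had 5.82 and 5.33.

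The 7 ether-a-go-go genes lay between 2.89 and 6.01 on the scale of average log2 CPM. *Kcnh2*, encoding the Erg1 channel, had the most reads of this subclass at 6.01, followed by *Kcnh1* at 5.27 and *Kcnh3* at 4.58. *Kcnh7*, *Kcnh5*, *Kcnh4* and *Kcnh6* had 3.61, 3.52, 3.18 and 2.89. The 7 silent Kv subunits form no channel alone but assemble with other Kv subunits and change their gating. Of these, only *Kcnf1*, at 5.19, was above the median of all rows. *Kcng4*, *Kcnv1* and *Kcng1* followed with average log2 CPM values of 4.57, 4.07 and 3.89. *Kcns3* at 2.57 and *Kcng2* at 2.50 were the Kv genes with the fewest reads, and *Kcns2* had 2.91.

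Upstream sequences of several Kv genes are shown because the Kv1 genes with the most reads had opposite base composition there. RefSeq windows of 300 bases around the gene start on GRCr8 (250 before, 50 after) were at hand for 45 of the 64 genes. The reads were counted on Ensembl gene models of Rnor_6.0. Whether those models begin at the same starts was not tested. Only the 250 bases before the start are printed, 5′ to 3′ on the strand of the gene, with each CpG dinucleotide in capitals.
Kcna2, chr2:197393280-197393529, plus strand: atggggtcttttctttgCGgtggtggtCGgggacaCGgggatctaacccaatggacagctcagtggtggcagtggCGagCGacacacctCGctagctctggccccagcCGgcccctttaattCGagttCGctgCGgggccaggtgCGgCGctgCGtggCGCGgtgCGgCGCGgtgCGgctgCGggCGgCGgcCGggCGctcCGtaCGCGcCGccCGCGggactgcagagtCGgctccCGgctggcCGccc
Kcna6, chr4:161262353-161262602, minus strand: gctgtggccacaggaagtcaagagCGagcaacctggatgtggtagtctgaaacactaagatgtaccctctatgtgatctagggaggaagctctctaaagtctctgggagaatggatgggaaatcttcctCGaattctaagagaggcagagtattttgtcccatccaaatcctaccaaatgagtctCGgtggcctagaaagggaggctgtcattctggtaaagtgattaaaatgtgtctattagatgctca
Kcna4, chr3:114215086-114215335, plus strand: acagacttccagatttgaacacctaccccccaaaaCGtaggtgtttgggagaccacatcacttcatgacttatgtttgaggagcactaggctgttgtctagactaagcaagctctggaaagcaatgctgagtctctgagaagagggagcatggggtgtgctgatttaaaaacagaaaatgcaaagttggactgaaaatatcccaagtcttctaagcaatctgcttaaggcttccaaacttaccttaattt
Kcnd3, chr2:195626066-195626315, plus strand: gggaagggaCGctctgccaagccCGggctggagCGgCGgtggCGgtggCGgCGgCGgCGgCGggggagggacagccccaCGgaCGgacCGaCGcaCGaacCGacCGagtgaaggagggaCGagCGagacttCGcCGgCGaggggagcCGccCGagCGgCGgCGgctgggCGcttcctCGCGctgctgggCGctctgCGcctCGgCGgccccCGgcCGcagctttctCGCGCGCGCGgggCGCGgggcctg
The capitals number 33 CpG in the printed bases of *Kcna2* and 43 in those of *Kcnd3*, against 3 in those of *Kcna6* and 1 in those of *Kcna4*.

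The Kir class had a median average log2 CPM of 4.73, with 3 of 11 genes at or above the median of all rows. *Kcnj10*, at chr13:90723092-90752581, had 6.54 (percentile 80.9) and *Kcnj16*, at chr10:99388130-99389898, had 6.36 (percentile 78.3). Their products, Kir4.1 and Kir5.1, assemble in astrocytes and take part in clearing potassium from around neurons. Among the other members of the class none exceeded 5.42. The 4 genes of G protein-gated channels, through which receptors coupled to inhibitory G proteins hyperpolarize neurons, had average log2 CPM values of 5.42 for *Kcnj9*, 4.78 for *Kcnj3*, 4.74 for *Kcnj6* and 3.29 for *Kcnj5*. The 4 classical inward rectifiers all lay below the median of all rows, with 4.73 for *Kcnj4*, 4.26 for *Kcnj14*, 3.76 for *Kcnj12* and 3.22 for *Kcnj2*. *Kcnj13*, encoding Kir7.1, a channel of transporting epithelia, had 2.32 (percentile 9.15).

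The upstream windows of the *Kcnj10* and *Kcnj16* genes are shown because their products form a joint channel.
Kcnj10, chr13:87334260-87334509, plus strand: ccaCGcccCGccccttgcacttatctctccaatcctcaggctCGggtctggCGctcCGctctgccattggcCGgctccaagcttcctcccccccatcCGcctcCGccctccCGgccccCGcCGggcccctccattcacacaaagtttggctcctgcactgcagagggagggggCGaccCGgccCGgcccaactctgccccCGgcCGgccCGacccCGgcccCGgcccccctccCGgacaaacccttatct
Kcnj16, chr10:96517074-96517323, plus strand: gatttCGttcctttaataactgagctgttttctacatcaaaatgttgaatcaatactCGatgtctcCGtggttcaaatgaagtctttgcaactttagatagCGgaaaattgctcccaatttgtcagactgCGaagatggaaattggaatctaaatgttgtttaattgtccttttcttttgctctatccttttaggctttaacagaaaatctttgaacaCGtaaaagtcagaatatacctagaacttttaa
The *Kcnj10* bases held 20 CpG at a GC content of 72.4%, and those of *Kcnj16* held 6 at 33.6%.

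The K2P class had a median average log2 CPM of 4.79, and 3 of 7 genes were at or above the median of all rows. *Kcnk2*, encoding the stretch- and lipid-sensitive TREK1 channel, had 5.98 (percentile 71.2). *Kcnk1*, encoding TWIK1, had 5.45. The acid-sensitive TASK channels were represented by *Kcnk9* at 5.42 and *Kcnk3* at 4.79. *Kcnk4* (TRAAK), *Kcnk10* (TREK2) and *Kcnk13* (THIK1), the last known from microglia, had average log2 CPM values of 3.28, 2.81 and 2.32, all below percentile 20 of the table.

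Among the calcium-activated channels and their relatives, the median average log2 CPM was 4.40, and 2 of 6 genes were at or above the median of all rows. *Kcnt1*, encoding the sodium-activated channel Slack, had 6.53 (percentile 80.8) and took 43.5% of the summed CPM of the class. *Kcnma1*, encoding the pore of the large-conductance BK channel, had 5.79 (percentile 67.4). *Kcnt2*, the second sodium-activated gene, had 4.75. The small-conductance SK genes, which produce the medium afterhyperpolarization, all lay below the median of all rows, with 4.05 for *Kcnn3*, 3.53 for *Kcnn2* and 3.25 for *Kcnn1*.

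The auxiliary class was the most spread, with a median average log2 CPM of 4.64 and 5 of 10 genes at or above the median of all rows. Cytoplasmic beta subunits of Kv1 channels came first, with *Kcnab2* at 6.99 (percentile 86.8) and *Kcnab1* at 6.38, whereas *Kcnab3* had 3.87. The calcium-binding KChIP proteins, partners of Kv4 channels, had average log2 CPM values of 6.21 for *Kcnip4*, 5.53 for *Kcnip1* and 5.18 for *Kcnip3*. Of the beta subunits of BK channels, *Kcnmb4*, the form typical of neurons, had 4.11 and *Kcnmb2* had 2.42. Of the 5 single-span KCNE subunits on the class list, 2 had a row. They had the fewest reads of the 64 genes, with 2.13 for *Kcne5* and 0.54 for *Kcne4* (percentile 1.8). Their annotated intervals on Rnor_6.0, 616 and 1189 bases, were also the shortest of the 64.

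Channel partners that are not named Kcn, and the HCN channels, were read from a separate list. Of its 21 genes 17 had a row, with a median average log2 CPM of 6.92, and 13 were at or above the median of all rows. *Dpp6* and *Dpp10*, membrane partners of Kv4 channels, had 8.74 and 6.48. *Amigo1*, a membrane partner of Kv channels, had 6.92. Of the HCN genes, which carry the depolarizing current activated by hyperpolarization, *Hcn2* had 7.26, *Hcn3* 5.48 and *Hcn4* 4.56.

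The genes differ widely in the length of the interval that the table gives them on Rnor_6.0. The median interval was 38.8 kb for the 64 genes and 21.5 kb for all rows, and 29.7% of the members against 13.4% of all rows exceeded 100 kb. *Kcnma1*, on chromosome 15 from 344360 to 1047956, had the longest interval, 703597 bases, and the calcium-activated class the longest median, 144 kb. At the other end, 11 members had an interval under 5 kb, and the shortest was that of *Kcne5* on chromosome X, 616 bases. Across genes, which are not independent replicates, Spearman's rho between interval and average log2 CPM was 0.29 over the 64 members and 0.28 over all 12828 rows.

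The interval sets an upper limit on the length of the transcript as annotated. Reads per kilobase of interval are therefore a lower limit on reads per kilobase of the annotated transcript. For a transcript that runs beyond its annotated interval the limit need not hold, and no transcript length was at hand to check it. Where it holds, the limit is close only for short intervals. On this scale of log2 CPM per kilobase of interval, *Kcnj16* stood at 5.54 with an interval of 1769 bases and *Kcnj2*, its neighbour with an interval of 1679 bases, at 2.47. *Kcna2* stood at 4.78, *Kcna1* at 4.51 with an interval of 1723 bases, *Kcnf1* at 3.77 and *Kcna3* at 3.46. *Kcnma1*, by contrast, stood at -3.67, a value that says little about its transcript.

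**Figure D2:**
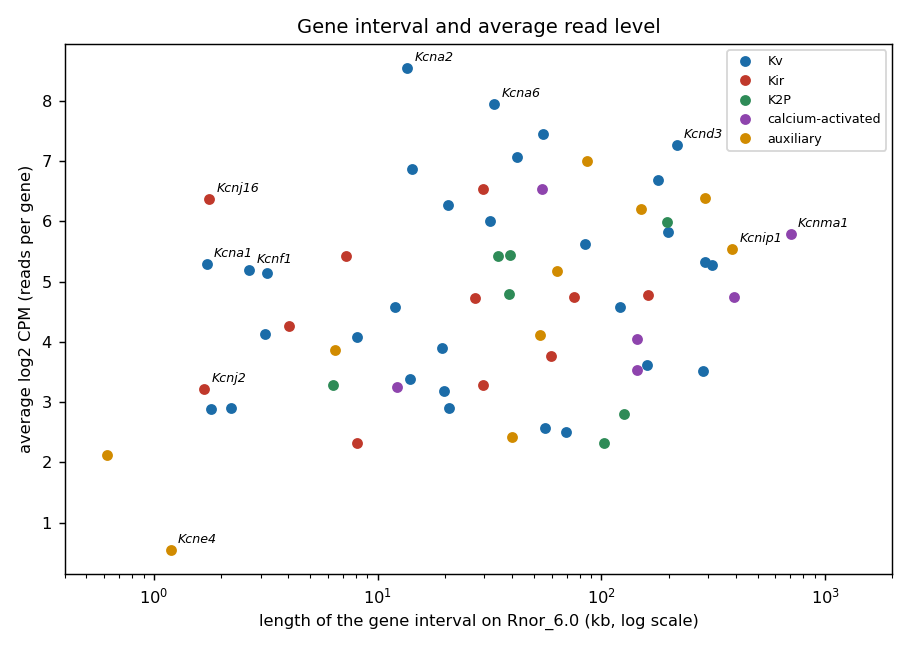
Length of each gene's interval on Rnor_6.0 (x axis, kb, log scale) against its average log2 CPM (y axis, reads per gene) for the 64 potassium channel genes, 1 point per gene, colored by class. Short intervals hold both many reads (*Kcnj16*, 6.36) and few (*Kcne4*, 0.54), and *Kcnma1* has the longest interval at an average log2 CPM of 5.79.

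The members lay on 18 chromosomes, with 8 each on chromosomes 3 and 7. There were 6 pairs of next members within 500 kb of each other, and for 5 of the 6 no other row of the table lay wholly between them. The unnamed model AABR07012826.1, which spans *Kcna3*, runs on into the gap between *Kcna3* and *Kcna2*. On chromosome 4 *Kcna5*, *Kcna1* and *Kcna6* followed each other, 112 kb and 61.4 kb apart, with average log2 CPM values of 2.89, 5.29 and 7.94. On chromosome 2 *Kcna3* at 5.14 lay 69.2 kb from *Kcna2* at 8.54, and *Kcnc4* at 6.27 lay 368 kb beyond. The Kir pairs were *Kcnj16* and *Kcnj2* on chromosome 10, 47.5 kb apart, and *Kcnj9* and *Kcnj10* on chromosome 13, 12.8 kb apart. Neighbours thus differed by between 1.12 (*Kcnj9* and *Kcnj10*) and 3.4 (*Kcna3* and *Kcna2*) in average log2 CPM. These are differences in reads per gene, not per length, and neighbours can have unlike intervals. That of *Kcna1* was 1723 bases and that of *Kcna6* 33260.

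The intervals of 4 members overlapped another row, which makes their read numbers less certain, because reads in the shared part may have been dropped or given to either gene. *Kcnk9* lay wholly inside the interval of *Trappc9* (average log2 CPM 6.3), and *Kcnh3* shared 51034 bases with *Spats2* (5.13). *Kcna3* and *Kcnj13* lay inside the intervals of the unnamed models AABR07012826.1 (3.43) and AABR07068272.1 (6.65).

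The RefSeq windows of the 45 members were compared with those of 9434 genes of the table. CpG observed over expected is the CpG count divided by the count that the C and G content would give. Its median was 0.61 in the members and 0.77 in all genes with a window, and it exceeded 0.6 in 51.1% of the members and 73.0% of all genes. The median GC content was 64.7% against 61.3%. By class, the median CpG observed over expected was 0.72 for the 19 Kv genes with a window, 0.72 for the 5 calcium-activated, 0.54 for the 9 Kir, 0.54 for the 3 K2P and 0.46 for the 9 auxiliary genes. It ran from 0.077 for *Kcna4* to 1.09 for *Kcnd3*. *Kcna2* had 0.99 and *Kcna6* 0.22, and both stood above percentile 90 of the table by reads. Across genes, which are not independent replicates, Spearman's rho between this ratio and average log2 CPM was 0.15 over the 45 members and 0.21 over all genes with a window.

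**Figure D3:**
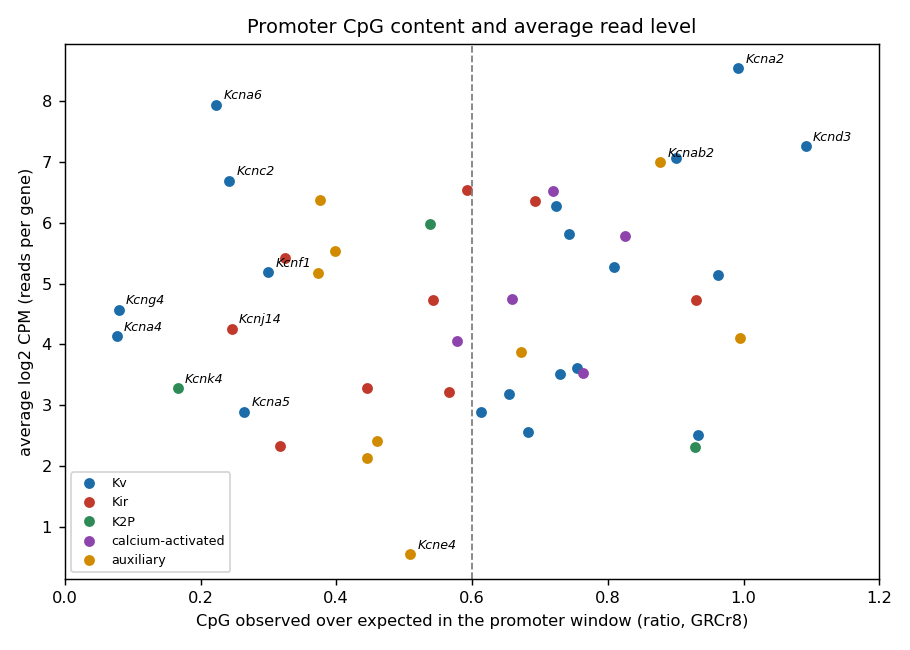
CpG observed over expected in the RefSeq window around the gene start (x axis, ratio, GRCr8, mean of the windows where a gene has several) against average log2 CPM (y axis, reads per gene) for the 45 potassium channel genes with a window, 1 point per gene, colored by class. The dashed line marks 0.6, which 23 of the 45 genes exceed; *Kcna6* at 0.22 and *Kcna2* at 0.99 both lie near the top of the plot.

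Short motifs were searched on both strands of the same windows. A window may hold several of them. The Sp1 box GGGCGG occurred in 52% of the 50 windows of members and 61.7% of the 10608 windows of all genes. CCAAT occurred in 30% and 37.0%, TATAAA in 2% (*Kcnj13* alone) and 6.71%, and the E box CACGTG in 4% (*Kcne4* and *Kcnh4*) and 9.15%. The cyclic AMP response element TGACGTCA occurred in 0 of the windows of members and 3.01% of all windows. These are letter matches and not binding sites.

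Markers of the tissue were checked in the same averages. Of 12 markers of arcuate neurons, 9 had a row, with a median of 4.34, between 0.085 for *Kiss1* and 6.02 for *Cartpt*, with *Pomc* at 4.67 and *Agrp* at 1.42. All 12 striatal markers had a row, with a median average log2 CPM of 5.19, and 8 of 10 cortical and hippocampal markers had one, with a median of 4.05 and a range from 2.13 to 8.44. The medians of the other neuronal lists were 5.82 (10 of 10 other hypothalamic markers), 4.79 (7 of 7 thalamic) and 5.45 (4 of 4 of parvalbumin interneurons). The 8 oligodendrocyte markers ran from 7.25 to 12.59 and the 7 astrocyte markers from 5.51 to 10.33. Medians were 4.32 for 6 of 7 microglial, 5.93 for 6 of 7 endothelial and pericyte, and 3.1 for 5 of 7 tanycyte and ependymal markers. Genes listed as markers of neurons outside the ARC and of glia were thus read in this tissue labelled as ARC. Whether each was read from cells of the type it is listed for was not tested. In bulk tissue, fewer cells of a type and less RNA per cell cannot be told apart. How much each cell type or region added to a channel's average was not tested.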

How the data were processed

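The authors made strand-specific poly-A libraries, per the submitters' processing notes trimmed the reads with Trim Galore 0.5.0, aligned them with STAR 2.6.0c to Rnor_6.0 and counted them on Ensembl gene models with HTSeq 0.6.1p2. Whether counting used the strand is not given in the sources used here. The authors deposited an average log2 CPM per gene, the value used here, in a table of 12828 rows. The methods state a minimum of 10 reads per gene, but whether it set the rows of this table, and which tool made the average, is not given in the sources used here. The table also holds the authors' own comparison of the diets in 4 columns (log2 fold change, F, p-value and FDR), which were not used. A further 10 columns of per-sample values are headed by bare numbers, which no label holds, and were left out. The tests between diets that had been planned (limma and exact permutation tests) were therefore not run, and no measured depth per library, interval or SD can be given.

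Percentiles are mid-ranks among all rows. Summed CPM values are 2 to the power of each average. Classes, markers and partners came from hand-written lists of gene symbols. The class list held 93 symbols, and the 29 without a row were not analysed here. By the naming rule, the 3 highest and 2 lowest genes of each class are named, and most remaining members were named as well, with their values already seen. A few genes count in the summaries but are not reported here by name. The members and lists were chosen with earlier results of these data known. RefSeq windows (GRCr8) were matched by symbol, each gene by the mean of its windows. Calculations were tested on simulated data. Scripts ran under Python 3.11.15 with pandas 2.3.3, numpy 2.4.6 and scipy 1.17.1, and plots were drawn with matplotlib 3.10.9.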

Additional observations from a re-analysis of the deposited data

How the results depend on the processing

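With protein-coding genes alone as the features compared, the medians of the members could not change, because all 64 are protein-coding. The count of members at or above the median of the features compared was again 29. The percentile of the median member was 44.3 in place of 45.8. When only genes at or above the median of all rows were kept, the median average log2 CPM was 6.01 for all members, 6.14 for Kv, 6.36 for Kir, 5.45 for K2P, 6.16 for calcium-activated and 6.21 for auxiliary genes, so that Kir in place of Kv came first, a consequence of removing the lower genes. Per kilobase of gene interval, an alternative chosen after seeing the data, the medians were -0.45 for all members, 0.30 for Kv, -0.0393 for Kir, -0.48 for K2P, -3.38 for calcium-activated and -0.92 for auxiliary genes. The scale per kilobase of transcript was not run, as no transcript length was at hand. No paired analysis was possible because the per-sample columns carry no replicate number or diet of the labels. For the same reason the alternatives planned for the diet comparison (pseudocount, filter, trend, quantile normalization, each dam left out) were not run. Since each gene has 1 average, differences between neighbours in the order of genes have no error, and none of them was tested.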
